A study of Mus musculus with 12 samples.

Results

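Neutrophil genes are described here by 6 transcripts that mouse neutrophils carry at high levels, S100a8, S100a9, Csf3r, Retnlg, Mmp8 and Mmp9. They were chosen by name: the rows of the deposited count table with these gene symbols, 6 of 54532 genes, 1 row for each symbol. The choice was made with earlier results of these data known. The study asks how ANGPTL8, a liver-made regulator of lipoprotein lipase, acts on lipid metabolism, and sequenced whole liver of wild-type mice on chow after 9 days of adenovirus. The 4 groups held 3 libraries each. Ad_GFP received the control virus of the overexpression arm, and ANG8 received the virus that overexpresses ANGPTL8. The knockdown arm consisted of shCtrl, with a control hairpin virus, and shANG8, with a virus to knock ANGPTL8 down. All 4 groups therefore carried an adenovirus, and no uninfected liver was analysed here. The labels give neither sex, age nor strain, and they do not state whether each library came from its own mouse. The p-values therefore reflect only how these libraries vary, and part of that variation may be technical.

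Neutrophils are short-lived white blood cells that leave the bone marrow ready-armed and enter the liver in numbers during infection, injury and steatohepatitis. S100A8 and S100A9 form calprotectin, a calcium- and metal-binding complex that fills the neutrophil cytosol and, once released, acts as an alarmin. CSF3R is the receptor for granulocyte colony-stimulating factor, RETNLG is a secreted resistin-like protein, and MMP8 and MMP9 are stored in granules and cut collagen and gelatin. Several of these transcripts are not made by neutrophils alone: monocytes also carry S100a8, S100a9 and Csf3r, and Mmp9 is made by macrophages and other cells.

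The proximal promoters of the 3 most abundant transcripts are shown first, because most of the values below rest on these genes. Each sequence is the 250 bases before the RefSeq transcript start, build GRCm38.p6, read 5′ to 3′ on the gene's strand. Capitals mark matches on either strand to 4 motifs that were searched: the C/EBP motif TTGCNNAA, the ETS family motif AGGAAG that PU.1 also uses, the AP-1 motif TGANTCA and the TATA box TATAAA. No match overlapped another. The RefSeq start lies 93 bases (S100a8) and 109 bases (Csf3r) inside the gene model of the deposited table, and at its start for S100a9.
S100a8, chr3:90668821-90669070, plus strand: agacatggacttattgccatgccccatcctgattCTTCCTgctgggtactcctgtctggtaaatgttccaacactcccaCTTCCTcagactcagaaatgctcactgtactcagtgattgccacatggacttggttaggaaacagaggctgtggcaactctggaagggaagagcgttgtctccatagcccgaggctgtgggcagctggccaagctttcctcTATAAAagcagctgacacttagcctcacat
S100a9, chr3:90695722-90695971, minus strand: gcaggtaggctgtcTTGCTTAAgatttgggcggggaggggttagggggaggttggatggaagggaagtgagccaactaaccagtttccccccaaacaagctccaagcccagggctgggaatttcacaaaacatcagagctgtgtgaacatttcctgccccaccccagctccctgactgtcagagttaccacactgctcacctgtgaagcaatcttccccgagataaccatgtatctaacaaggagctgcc
Csf3r, chr4:126024409-126024658, plus strand: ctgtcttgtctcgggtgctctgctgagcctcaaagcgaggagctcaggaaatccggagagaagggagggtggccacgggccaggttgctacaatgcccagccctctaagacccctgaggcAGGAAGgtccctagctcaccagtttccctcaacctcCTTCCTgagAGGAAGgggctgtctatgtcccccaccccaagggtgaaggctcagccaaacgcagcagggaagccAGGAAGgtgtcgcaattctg

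The S100a8 window held AGGAAG at 216 to 211 and at 171 to 166 bases before the start, both on the opposite strand, and TATAAA at 30 to 25 bases before it. The S100a9 window held TTGCNNAA at 236 to 229 bases before the start and none of the other 3 motifs. The Csf3r window held 4 copies of AGGAAG, at 130 to 125, 94 to 89 (opposite strand), 85 to 80 and 20 to 15 bases before the start. Of 32841 mouse promoter windows of this length, 29.5% held the ETS motif, 12.4% the TATA box, 9.57% the C/EBP motif and 6.75% the AP-1 motif. These matches are letters in a window and show no binding.

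In the deposited table, whose positions are those of GRCm38, S100a8 (ENSMUSG00000056054) spans chromosome 3, 90668978 to 90670035, on the plus strand. S100a9 (ENSMUSG00000056071) spans 90692632 to 90695721 of the same chromosome on the minus strand, and no other gene lies in the 22596 bases between them. Csf3r (ENSMUSG00000028859) lies on chromosome 4, 126024550 to 126044440, plus strand. Retnlg (ENSMUSG00000022651) lies on chromosome 16, 48872621 to 48874496, plus strand. Mmp8 (ENSMUSG00000005800) lies on chromosome 9, 7558456 to 7568485, and Mmp9 (ENSMUSG00000017737) on chromosome 2, 164940780 to 164955850, both on the plus strand. No annotated gene overlaps any of the 6. Of 3676 stretches of 50 bases in Csf3r transcripts, 385 (10.5%) also occur in transcripts of 190 other genes, so part of its count is uncertain; the other 5 genes share none.

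Libraries held 12537083 to 15144312 counts, and the 6 genes together received 126 to 571 of them. Csf3r took 71.0% of those counts. Counts were scaled to CPM values (the counts of a gene in 1e+06 counts of its library), with library sizes corrected by the TMM method of edgeR, and 14686 genes passed the filter on low counts and were tested. S100a8, S100a9, Csf3r and Mmp9 passed. Retnlg and Mmp8 did not, at 62 and 24 counts over all 12 libraries, and a count of 0 allows up to 0.182 to 0.246 CPM depending on the library (counting error only). Angptl8, the gene the viruses target, ran from 80.4 to 96.8 CPM in Ad_GFP, 165 to 314 in ANG8, 167 to 391 in shCtrl and 79.2 to 144 in shANG8. Its adjusted p (edgeR) was 0.0201 for overexpression and 0.235 for knockdown. Between the control viruses, shCtrl minus Ad_GFP, its log2 fold change was 1.75 (SE 0.33, edgeR adjusted p = 0.338, unadjusted p = 0.000125). Every shCtrl library lay above every Ad_GFP library, so the arms did not share a common Angptl8 level in their controls. Hepatocyte markers summed to 40715 to 59850 CPM in Ad_GFP, 22792 to 48925 in ANG8, 59450 to 77335 in shCtrl and 50953 to 76482 in shANG8. The mitochondrial share of counts ran from 19.3% to 43.8%, and was highest in ANG8 replicates 1 and 2 at 39.0% and 43.8%.

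The defining neutrophil markers outside the 6 genes were near 0. Ly6g, the surface antigen that defines mouse neutrophils, had 3 counts in Ad_GFP replicate 2 and 0 in the other 11 libraries. Camp, Ngp and Ltf, which encode granule proteins made in the marrow, had at most 6, 8 and 11 counts in any library. Cxcr2, the receptor for neutrophil chemokines, had 0 to 16. Summed over 13 neutrophil markers, the 6 genes included, levels ran from 18.2 to 41.1 CPM in Ad_GFP, 31.5 to 43.3 in ANG8, 23.3 to 25.5 in shCtrl and 10.5 to 15.1 in shANG8. Bulk RNA cannot tell fewer cells of a type from less RNA per cell, and with Ly6g near 0 the 6 genes are described as transcripts rather than as a measure of neutrophils.

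**Figure D1:**
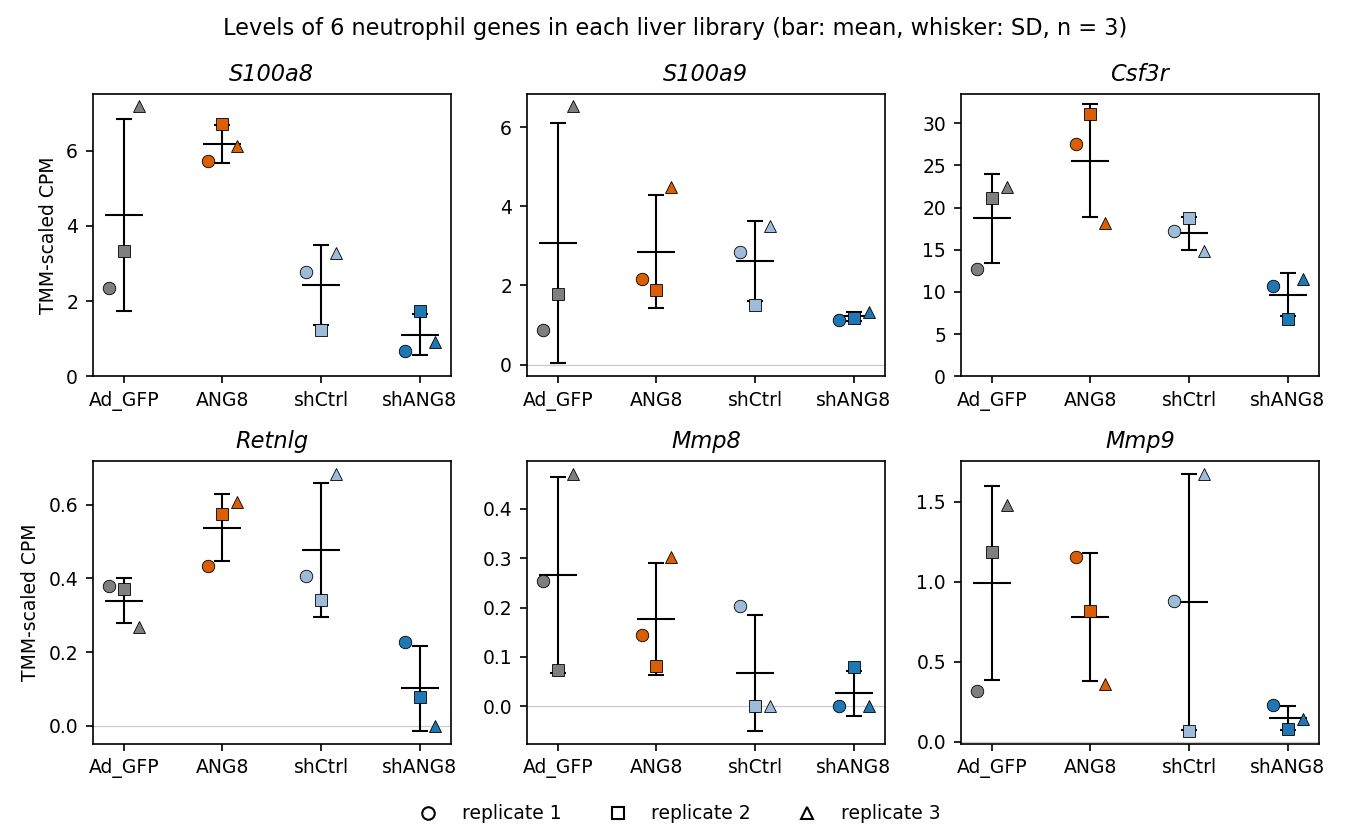
Level of each of the 6 genes (vertical axes, TMM-scaled CPM, a separate scale for each gene) in the 12 libraries, by group; symbols are replicates, the bar is the mean and the whisker the SD of 3 libraries. Csf3r sits between 6.77 and 11.5 CPM in shANG8, below all shCtrl libraries at 14.9 to 18.7, while Retnlg, Mmp8 and Mmp9 stay under 2 CPM throughout.

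S100a8 and S100a9, the calprotectin pair, did not pass the test under overexpression, and their groups overlapped. S100a8 received 37, 45 and 107 counts in Ad_GFP replicates 1 to 3, and 79, 82 and 101 in ANG8, or 4.29 ± 2.57 and 6.19 ± 0.502 CPM (SD, n = 3). The groups overlapped because Ad_GFP replicate 3 stood above every ANG8 library after scaling. The overexpression effect was 0.53 (log2, SE 0.43, edgeR adjusted p = 0.468). S100a9 received 14, 24 and 97 counts in Ad_GFP and 30, 23 and 74 in ANG8. Replicate 3 was the highest library of both groups. The means were 3.06 ± 3.03 and 2.85 ± 1.43 CPM (SD, n = 3), with a log2 fold change of −0.09 (SE 0.58, edgeR adjusted p = 0.940). Without Ad_GFP replicate 3 the S100a9 value was 1.11 and the S100a8 value 1.12 (log2), neither passing the test, and S100a8 had 0.23 without Ad_GFP replicate 1.

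In the knockdown arm both alarmin transcripts had lower counts with the Angptl8 hairpin, without passing the test. S100a8 received 41, 18 and 43 counts in shCtrl and 9, 22 and 13 in shANG8, or 2.43 ± 1.06 and 1.11 ± 0.551 CPM (SD, n = 3). The groups overlapped through shCtrl replicate 2 and shANG8 replicate 2. On the log2 scale the change was −1.13 (SE 0.49, edgeR adjusted p = 0.584). S100a9 received 42, 22 and 46 counts in shCtrl and 15, 15 and 19 in shANG8. All 3 shANG8 libraries, at 1.14 to 1.34 CPM, lay below every shCtrl library. The estimate was −1.09 (log2, SE 0.61, edgeR adjusted p = 0.70).

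Csf3r was the most abundant of the 6 in raw counts and the 1 whose response differed between the arms by the test. It received 201, 285 and 334 counts in Ad_GFP and 380, 379 and 299 in ANG8, or 18.8 ± 5.28 and 25.6 ± 6.68 CPM (SD, n = 3). ANG8 replicates 1 and 2 were the highest of all libraries, while ANG8 replicate 3 lay within the Ad_GFP range. This gave 0.45 on the log2 scale (SE 0.25, 95% interval −0.04 to 0.94, edgeR adjusted p = 0.266). It was 0.23 without Ad_GFP replicate 1, 0.29 without ANG8 replicate 2 and 0.15 with the mitochondrial share of counts as a covariate, none passing the test.

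With the hairpin, Csf3r received 141, 86 and 164 counts against 254, 274 and 196 in shCtrl, or 9.66 ± 2.54 and 17.0 ± 1.93 CPM (SD, n = 3). All shANG8 libraries lay below all shCtrl libraries. The log2 fold change was −0.81 (SE 0.26, 95% interval −1.32 to −0.30), a level 0.571 times that of shCtrl. It did not pass after adjustment over all genes (edgeR adjusted p = 0.389, unadjusted p = 0.00602).

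The overexpression effect minus the knockdown effect on Csf3r was 1.25 (log2, SE 0.36, 95% interval 0.55 to 1.96) and passed (edgeR adjusted p = 0.0453). The test is of the difference between the effects of the overexpression and hairpin viruses, and neither effect passed alone. The adjusted p lies close to the 0.05 threshold. It was 0.0218 with DESeq2 and 0.0552 with limma voom. With the mitochondrial share as a covariate, the difference was 0.88 (adjusted p = 0.111). Across all alternatives the adjusted p ran from 0.00117 to 0.111. The call was lost when any 1 of 9 libraries was left out: adjusted p was 0.0992 and 0.0590 without Ad_GFP replicates 1 and 2, 0.107 and 0.102 without ANG8 replicates 1 and 2, 0.0925, 0.10 and 0.0560 without shCtrl replicates 1, 2 and 3, and 0.0520 and 0.0975 without shANG8 replicates 1 and 2. It was kept without Ad_GFP replicate 3 (0.0398), ANG8 replicate 3 (0.0251) or shANG8 replicate 3 (0.0314).

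Retnlg, the resistin-like gene whose transcript is typical of circulating mouse neutrophils, was close to the limit of detection. It received 6, 5 and 4 counts in Ad_GFP and 6, 7 and 10 in ANG8, or 0.340 ± 0.0613 and 0.538 ± 0.0913 CPM (SD, n = 3). It received 6, 5 and 9 counts in shCtrl and 3, 1 and 0 in shANG8, or 0.478 ± 0.182 and 0.102 ± 0.115 CPM (SD, n = 3). Every ANG8 library lay above every Ad_GFP library and every shANG8 library below every shCtrl library. Over all tested genes, 17.9% had every ANG8 library above every Ad_GFP library, and 6.78% every shANG8 library below every shCtrl library. Both exact two-sided permutation tests gave p = 0.1, the smallest that 3 against 3 libraries allow. In all, shCtrl held 20 counts and shANG8 4. For single libraries, the 95% Poisson interval was 4.12 to 17.1 for the 9 counts in shCtrl replicate 3. It was 0.619 to 8.77 for the 3 counts in shANG8 replicate 1. These 2 libraries were the highest of their groups. Their intervals overlap, which is no test of the groups.

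Mmp8, the neutrophil collagenase, had 24 counts in all. It received 4, 1 and 7 counts in Ad_GFP and 2, 1 and 5 in ANG8 (exact two-sided permutation p = 0.7), and 3, 0 and 0 in shCtrl. In shANG8 it received 0, 1 and 0. Most of these libraries sat at or below the 3 counts that an observed 0 allows, so no fold is given for the hairpin arm and differences were not detectable at this depth.

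Mmp9, a gelatinase of neutrophil granules and of macrophages, had the largest standard errors of the 4 tested genes in every comparison. It received 5, 16 and 22 counts in Ad_GFP and 16, 10 and 6 in ANG8, or 0.993 ± 0.605 and 0.781 ± 0.399 CPM (SD, n = 3). The log2 fold change was −0.35 (SE 0.84, edgeR adjusted p = 0.832). In the knockdown arm shCtrl held 13, 1 and 22 counts and shANG8 3, 1 and 2. The shCtrl libraries spanned the widest range, and replicate 2, at 0.0683 CPM, was as low as the shANG8 libraries. Mmp9 thus had a log2 fold change of −2.47 (SE 1.01, 95% interval −4.45 to −0.49) and did not pass (edgeR adjusted p = 0.551). The value was −1.62 without shCtrl replicate 3 and −1.57 with voom.

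**Figure D2:**
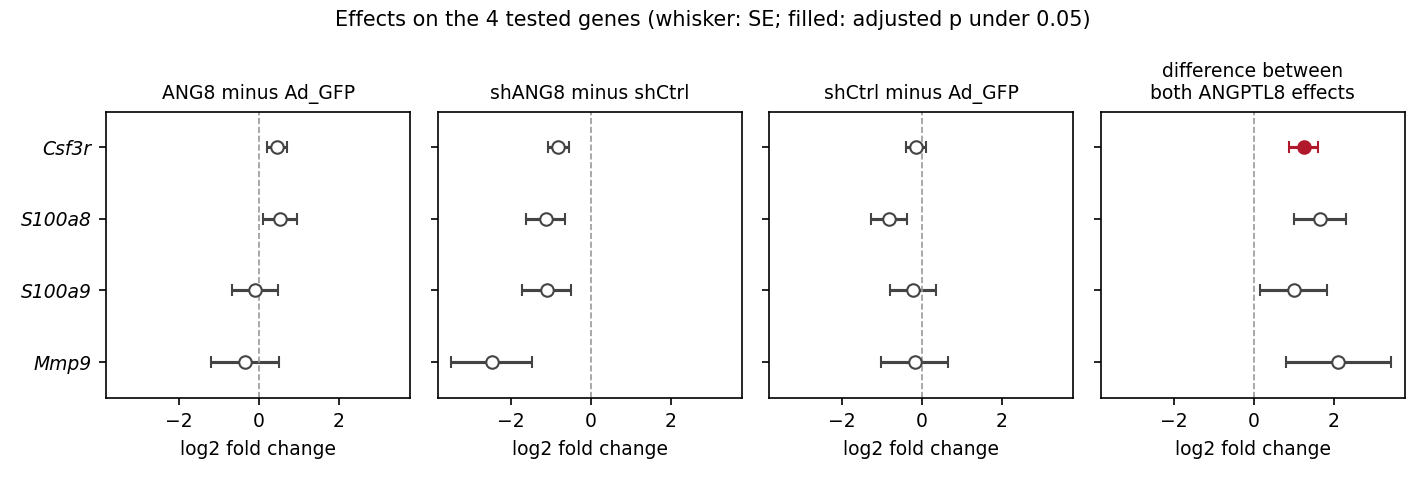
Log2 fold change (horizontal axes) of the 4 tested genes in 4 comparisons; whiskers are SE and filled points have an edgeR adjusted p under 0.05. The 1 filled point is Csf3r in the difference between the ANGPTL8 effects, at 1.25, and all 4 points lie left of 0 for shANG8 minus shCtrl, from −2.47 to −0.81.

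Taken by comparison, 0 of the 4 tested genes passed under overexpression, where 13.5% of all tested genes passed. DESeq2 and voom also called 0, and 0 had an unadjusted p under 0.05 in edgeR, against 27.7% of all tested genes. Their median log2 fold change was 0.18, against −0.00 over all tested genes. Under knockdown, 0 of 4 passed with edgeR, DESeq2 or voom, where edgeR called 0.191% of all tested genes. An unadjusted p under 0.05 (edgeR) was reached by S100a8, Csf3r and Mmp9, and 4.14% of all tested genes reached it in the same direction. All 4 log2 fold changes were negative, as were 48.9% of those of all tested genes. S100a9 and Csf3r had every shANG8 library below every shCtrl library, as had 6.78% of all tested genes. The median of the 4 genes was −1.11, against 0.01 over all tested genes.

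In the difference between the effects, Csf3r passed and S100a8, S100a9 and Mmp9 did not, where 6.62% of all tested genes passed. S100a8 and Csf3r had an unadjusted p under 0.05, as had 21.9% of all tested genes. S100a8 had a difference of 1.65 (log2, SE 0.65, edgeR adjusted p = 0.140). When Ad_GFP replicate 3 was left out, it was 2.25 with an edgeR adjusted p of 0.0463. S100a9 and Mmp9 had differences of 1.00 (SE 0.84) and 2.12 (SE 1.31). The S100a9 difference was 0.56 without Ad_GFP replicate 1, 2.21 without Ad_GFP replicate 3 and 0.49 without ANG8 replicate 3. The Mmp9 difference was 1.27 without shCtrl replicate 3, 1.33 with voom and 1.30 with the mitochondrial covariate. No value of these 2 genes passed. The comparison of the control viruses, shCtrl minus Ad_GFP, gave −0.82 (SE 0.45) for S100a8, −0.23 (SE 0.58) for S100a9, −0.14 (SE 0.25) for Csf3r and −0.19 (SE 0.84) for Mmp9. None of these 4 passed with edgeR, DESeq2 or voom, and none had an unadjusted p under 0.05. Over all genes edgeR called 0% there, with 8.76% at an unadjusted p under 0.05, while DESeq2 called 46 genes and voom 0.

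The order of the groups differed between the genes. By mean CPM, Csf3r and S100a8 had the order ANG8, Ad_GFP, shCtrl, shANG8, and all 6 genes had their lowest mean in shANG8. The highest mean lay in ANG8 for S100a8, Csf3r and Retnlg, and in Ad_GFP for S100a9, Mmp8 and Mmp9. Neighbouring groups in these orders lay within each other's spread, apart from shANG8 for Csf3r, S100a9, Retnlg and Mmp9, where no library reached the group above. Per kilobase of gene model, the Ad_GFP means of S100a8, S100a9 and Csf3r were 6.18, 5.87 and 5.20 CPM per kilobase. Their Ad_GFP libraries ran from 3.37 to 10.4, 1.70 to 12.5 and 3.52 to 6.22. Retnlg, Mmp9 and Mmp8 had lower Ad_GFP means, at 0.573, 0.281 and 0.110. Over all libraries, the Csf3r level per kilobase was 0.569 to 3.01 times that of S100a8.

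The proportion of the calprotectin pair varied between libraries. S100a8 counts per S100a9 count were 2.64, 1.88 and 1.10 in Ad_GFP and 2.63, 3.57 and 1.36 in ANG8. They were 0.976, 0.818 and 0.935 in shCtrl and 0.600, 1.47 and 0.684 in shANG8. All 6 libraries of the overexpression arm thus held more S100a8 than S100a9 counts, against 1 of 6 in the knockdown arm. The share of S100a8 in the pair ran from 37.5% (95% Clopper-Pearson interval 18.8% to 59.4%, shANG8 replicate 1) to 78.1% (69.0% to 85.6%, ANG8 replicate 2). These libraries were picked as the lowest and highest of all, and the intervals cover counting error only. The split by arm was seen in the counts and was not tested.

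**Figure D3:**
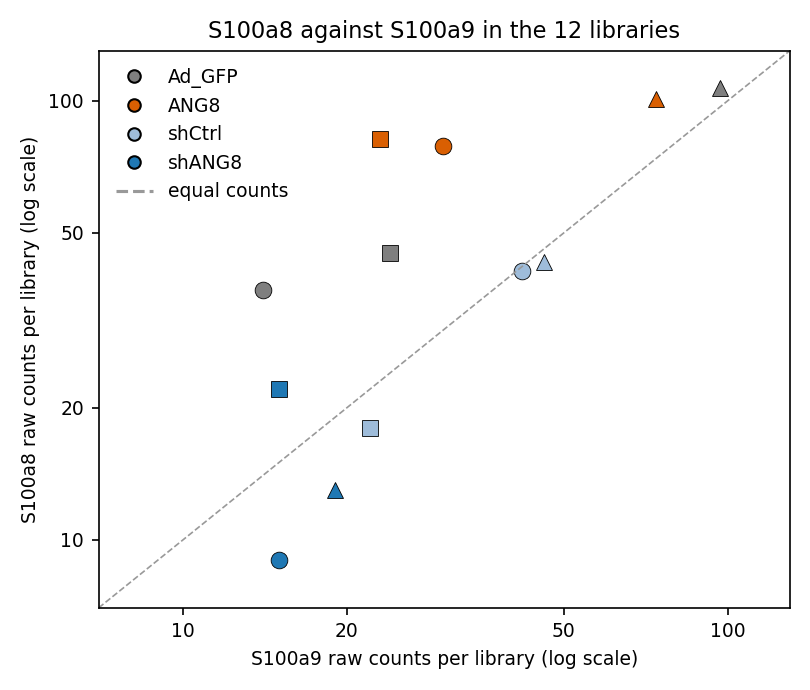
Raw counts of S100a8 (vertical, log scale) against S100a9 (horizontal, log scale) in the 12 libraries, coloured by group; the dashed line marks equal counts. Ad_GFP and ANG8 libraries lie above the line, from 1.10 to 3.57 S100a8 counts per S100a9 count, and shANG8 replicate 2, at 1.47, is the knockdown-arm library above it.

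Correlations between the 4 tested genes, 6 pairs, were taken across the 12 libraries on a log2 CPM scale (prior count 2). The permutations ignored the groups, so differences between groups alone can give a low p. The r values after subtraction of group means were not tested. S100a8 and S100a9 had Pearson r = 0.70 and Spearman rho = 0.77 (permutation p = 0.0118 and 0.00538, adjusted over the 6 pairs 0.0237 and 0.0161). Without the 2 libraries farthest from the S100a8 median r was 0.66, and after group means were subtracted it was 0.75. S100a8 and Csf3r had r = 0.72 and rho = 0.79 (permutation p = 0.00836 and 0.00334, adjusted 0.0237 and 0.0161), and r = 0.66 without 2 libraries. After group means were subtracted that r was −0.03, and whether the 2 genes relate within groups was not tested. Mmp9 had r = 0.72 with S100a8, 0.64 with S100a9 and 0.64 with Csf3r (permutation p adjusted over the 6 pairs 0.0237, 0.0308 and 0.0308), and 0.61, 0.51 and 0.36 after that subtraction. By rho, Csf3r and Mmp9 did not pass (0.51, adjusted permutation p = 0.0936). S100a9 and Csf3r did not pass by r (0.49, adjusted permutation p = 0.107) or by rho (0.58, adjusted permutation p = 0.0619), and had r = 0.14 after the subtraction.

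The tested genes most like each member, by Pearson r over the same 12 libraries, were Traip (0.96), Ptgs1 (0.96) and Adcy7 (0.95) for S100a8, and Tpp2 (0.82), Mapk7 (0.80) and Nmt2 (0.80) for S100a9. For Csf3r they were Mag (0.96), Ctla4 (0.95) and Rab27a (0.95), and for Mmp9 Grasp (0.85), Ap4b1 (0.83) and Casp12 (0.83). After group means were subtracted, r was 0.87, 0.88 and 0.90 for the neighbours of S100a8 in that order. It was 0.77, 0.86 and 0.84 for those of S100a9, 0.86, 0.81 and 0.81 for Csf3r, and 0.80, 0.80 and 0.84 for Mmp9. Mag and Ctla4 had mean levels of 0.835 and 0.785 CPM. The neighbours were picked as the highest of many genes, so high r values can arise by selection alone, and none was tested. None of the 6 genes was among the 3 most like another, since members were left out of this ranking.

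Neutrophils share their oxidase, several receptors and signalling genes with macrophages. The companion lists below were chosen with earlier results of these data known. Their counts beside the shares of all tested genes are therefore descriptive and no test of the lists. All 6 genes of the phagocyte oxidase rose under overexpression (median log2 fold change 1.20), where 7.08% of all tested genes rose and 6.39% fell. With 1 library left out, 4 to 6 still passed. Under knockdown none passed with edgeR, DESeq2 or voom and 1 was lower at an unadjusted p under 0.05 (median −0.04). Cyba, the membrane subunit p22phox, ran from 18.4 to 27.4 CPM in Ad_GFP and 44.7 to 58.0 in ANG8 (log2 fold change 1.13, SE 0.19, edgeR adjusted p = 0.00108). Ncf1 (p47phox) ran from 5.31 to 9.95 and 17.9 to 21.7 CPM, with a log2 fold change of 1.31 (SE 0.25). Every ANG8 library lay above every Ad_GFP library for both genes, as was so for 17.9% of all tested genes.

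Of 19 surface receptors of neutrophils, 12 could be tested and 4 rose under overexpression (median 0.86), where 7.08% of all tested genes rose. Under knockdown edgeR, DESeq2 and voom called none, and 4 were lower at an unadjusted p under 0.05 (median −0.28), as were 4.14% of all tested genes. Fpr1, the formyl peptide receptor, ran from 4.98 to 6.96 CPM in Ad_GFP and 11.6 to 14.1 in ANG8 (log2 fold change 1.20, SE 0.23, edgeR adjusted p = 0.00253). Receptors for IgG, Fcgr3 and Fcgr4, which are also abundant on macrophages, rose by 1.31 (SE 0.26) and 1.57 (SE 0.29) on the log2 scale. Of the granule proteins, 1 of 4 azurophil genes found and 5 of 9 later ones could be tested, and none passed in any comparison with edgeR. DESeq2 called 2 of the later ones under overexpression and voom 1. The 5 later granule genes had a median of 1.19 under overexpression and 3 were higher at an unadjusted p under 0.05, as were 14.4% of all tested genes. Those 3 were Lcn2, Pglyrp1 and Slpi. Hepatocytes also make Lcn2, and both Lcn2 and Slpi had their highest ANG8 counts in replicate 3. Camp, Ngp and Ltf were too low to test.

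Among 17 genes that recruit neutrophils, 10 could be tested and 2 rose under overexpression, against 7.08% of all tested genes. The 2 were Icam1 and Vcam1, which encode adhesion molecules, and which cells carried these transcripts was not tested. Icam1 rose by 0.78 on the log2 scale (SE 0.21, edgeR adjusted p = 0.0220). Vcam1 rose by 1.42 (SE 0.32, edgeR adjusted p = 0.0109). Icam1 no longer passed when Ad_GFP replicate 2 (adjusted p = 0.0957), ANG8 replicate 1 (0.0634) or ANG8 replicate 3 (0.0932) was left out, nor did Vcam1 without Ad_GFP replicate 1 (0.0504). Ppbp, a platelet chemokine acting on CXCR2, differed between the arms by 2.59 (SE 0.74, edgeR adjusted p = 0.0455). It had 28, 25 and 26 counts in Ad_GFP, 36, 36 and 22 in ANG8, 17, 20 and 15 in shCtrl and 3, 5 and 2 in shANG8. This call was lost in 13 of 19 alternatives, including leaving out any 1 library except ANG8 replicate 3 or shANG8 replicate 2, with adjusted p up to 0.116. Csf3, which encodes the ligand of CSF3R, had 4 counts in shANG8 replicate 1 and 0 elsewhere. Under knockdown 0 of the 10 passed with edgeR, DESeq2 or voom, and 3 were lower at an unadjusted p under 0.05, as were 4.14% of all tested genes.

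Of 12 other S100 proteins and calprotectin receptors tested, 1 rose and 2 fell under overexpression, where 7.08% of all tested genes rose and 6.39% fell. S100a11 rose by 1.75 (SE 0.43, edgeR adjusted p = 0.0211). That call was lost without Ad_GFP replicate 1 (0.0893), Ad_GFP replicate 2 (0.0951) or ANG8 replicate 3 (0.0652). S100a1 fell by 1.02 (SE 0.25, edgeR adjusted p = 0.0150), a call lost without Ad_GFP replicate 1 (0.0662), ANG8 replicate 1 (0.0705) or ANG8 replicate 2 (0.0756). S100a13 fell by 0.56 (SE 0.18, edgeR adjusted p = 0.0468), a call lost in 12 of 20 alternatives with adjusted p up to 0.183, among them leaving out any 1 library except ANG8 replicate 3, shANG8 replicate 2 or shANG8 replicate 3. Under knockdown no gene of this list passed with edgeR, DESeq2 or voom, and 0 had an unadjusted p under 0.05.

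Of 12 genes that signal below CSF3R, 4 rose under overexpression, where 7.08% of all tested genes rose. Under knockdown none passed with edgeR, DESeq2 or voom, and 0 had an unadjusted p under 0.05. The Src-family kinase gene Lyn rose by 0.63 (SE 0.15) on the log2 scale. The phosphatase gene Ptpn6 rose by 0.77 (SE 0.21, edgeR adjusted p = 0.0198), a call lost without Ad_GFP replicate 2 (0.0844) or ANG8 replicate 1 (0.0850). Mmp14, a membrane collagenase, was the 1 of 11 tested metalloproteinase and inhibitor genes that passed under overexpression with edgeR, where DESeq2 called 3 and voom 2. It rose from 52.9 to 73.0 CPM in Ad_GFP to 97.6 to 203 in ANG8 (log2 fold change 1.42, SE 0.25). In the knockdown arm Mmp14 also had a positive log2 fold change, 0.89 (SE 0.24), that did not pass (edgeR adjusted p = 0.245). The difference between these effects on Mmp14, 0.53 (SE 0.34), did not pass either (edgeR adjusted p = 0.391). Of 8 granulocyte transcription factors, Spi1 (PU.1) rose by 1.36 (SE 0.21) and the others did not pass. The 3 further resistin family genes had 0 to 6 counts per library and were not tested.

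**Figure D4:**
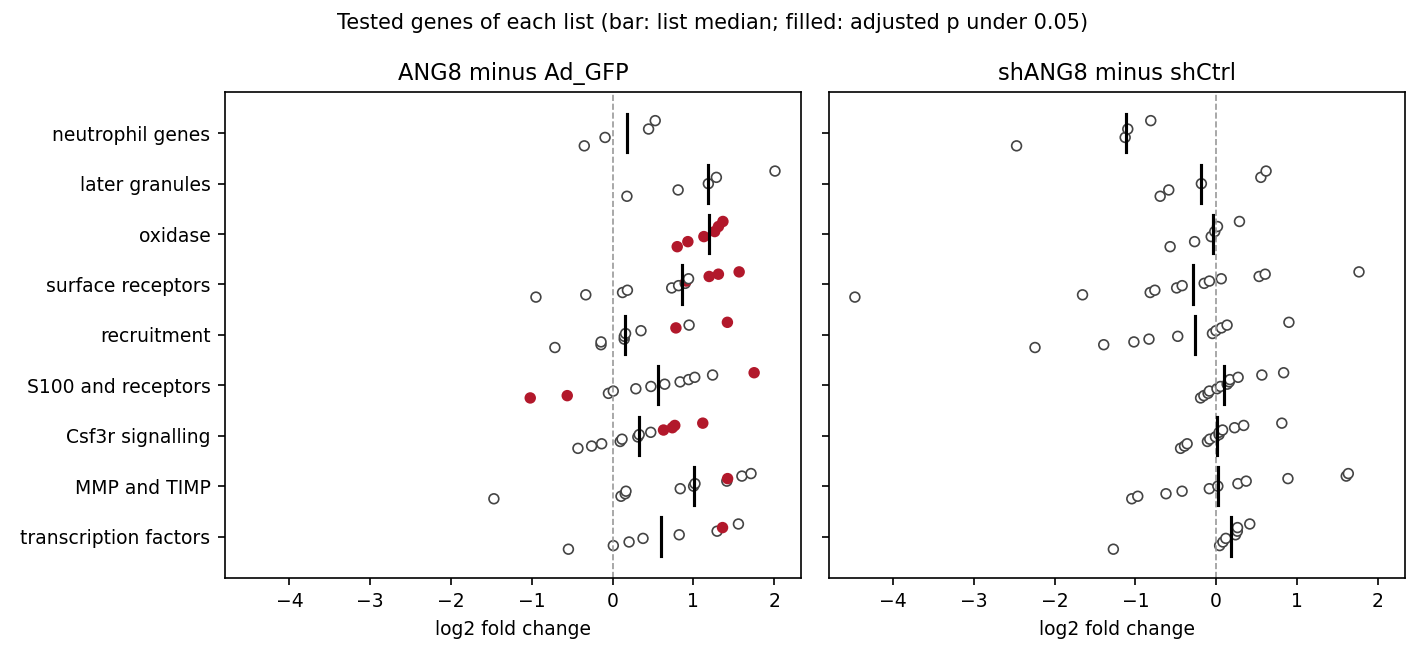
Log2 fold change (horizontal axes) of every tested gene in the neutrophil genes and 8 companion lists, for ANG8 minus Ad_GFP and shANG8 minus shCtrl; black bars are list medians and filled points have an edgeR adjusted p under 0.05. The oxidase list lies right of 0 on the left panel (median 1.20) and near 0 on the right (−0.04), whereas the neutrophil genes have medians of 0.18 and −1.11.

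Markers of other blood cells were compared in the same libraries. From Ad_GFP to ANG8, summed macrophage and Kupffer cell markers ran from 432 to 588 and from 1042 to 1379 CPM, with 9 of 11 genes higher by the test. Summed monocyte markers ran from 19.9 to 33.0 and from 58.7 to 62.1 CPM (2 of 5 tested genes higher), and T and NK cell markers from 38.9 to 57.4 and 91.5 to 118 CPM (4 of 10 higher and 1 lower). Over all tested genes 7.08% were higher and 6.39% lower by the test. Of the 7 hepatocyte markers, 5 were lower in ANG8 by the test. From shCtrl to shANG8 no marker of any list passed with edgeR or voom, and DESeq2 called Cd8a lower and Marco higher. At an unadjusted p under 0.05, edgeR had 5 of 10 T and NK cell markers lower, as were 4.14% of all tested genes, and 2 of 11 macrophage and Kupffer cell markers higher, as were 3.79% of all tested genes. Macrophage and Kupffer cell markers summed to 336 to 399 CPM in shCtrl and 295 to 533 in shANG8, and 8 of the 11 had a positive log2 fold change. There T and NK cell markers summed to 54.4 to 77.7 and 29.7 to 45.1 CPM, platelet markers to 8.35 to 11.1 and 4.50 to 7.71, and monocyte markers to 21.4 to 30.0 and 13.3 to 26.5. In the same order of groups, B and plasma cell markers summed to 41.2 to 79.2 and 25.4 to 55.8 CPM. Erythroid markers summed to 173 to 351 and 120 to 202 CPM, and eosinophil, basophil and mast cell markers to 0.547 to 0.912 and 0.227 to 1.34. The mitochondrial share was 19.8% to 34.9% in Ad_GFP, 22.5% to 43.8% in ANG8, 22.9% to 24.2% in shCtrl and 19.3% to 22.9% in shANG8. What part these other cells or RNA composition have in the values of the 6 genes was not tested.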

How the data were processed

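The deposited table gives raw counts per gene, which the authors did not normalize. CASAVA 1.8.2, the counter featureCounts 1.5.0-p3 and mm9 as genome build appear in the submitters' processing notes. The table's coordinates are those of GRCm38: 98.3% of the gene identifiers found in GENCODE vM21 have identical positions there. Total RNA was taken up in Trizol and the NEBNext Ultra RNA kit made the libraries, per the labels' protocols. Not given in the sources used here are aligner, strandedness of counting and annotation version.

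Counts were filtered with filterByExpr (minimum count 10), scaled by TMM and fitted over all 12 libraries with edgeR 4.0.16 (robust quasi-likelihood, R 4.3.3). Standard errors are the absolute log2 fold change divided by the square root of F, and 95% intervals use the normal quantile. Adjustment of p-values covered all tested genes (Benjamini-Hochberg), with a threshold of 0.05. DESeq2 1.42.0 and limma 3.58.1 (voom) were alternatives. The 2 genes below the filter were compared by exact permutation of CPM. The script was tested on simulated data. Correlations used 100000 permutations. Libraries of 1 group differed by more than sampling noise (chi-square divided by the number of genes, 14.6 to 152).

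The 6 genes and the companion lists were chosen with earlier results of these data known. Named were the 6 genes, up to 3 called genes of each companion list by smallest p, and the 3 genes most correlated with each tested member; some genes this rule names are not reported here. Promoters came from RefSeq (GRCm38.p6), with entries for 5 of the 6 genes and none for Mmp9. Same-numbered libraries were not treated as pairs.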

Additional observations from a re-analysis of the deposited data

Results flagged for a closer look

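The response of Csf3r differed between the arms by the test of the difference itself: the overexpression effect minus the knockdown effect was 1.25 (log2, SE 0.36, edgeR adjusted p = 0.0453). Csf3r had a log2 fold change of 0.45 with the ANGPTL8 virus (0.23 to 0.62 with 1 library left out) and −0.81 with the hairpin, and neither passed alone. The adjusted p over the alternatives ran from 0.00117 to 0.111.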

How the results depend on the processing

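Of the 19 alternatives for the Csf3r difference, 11 lost the call. The number of members called in the difference was 1, and 0 with voom, 0 with the mitochondrial covariate (chosen after seeing the data) and 0 to 2 with 1 library left out. Under knockdown it was 0, and 1 without the filter (Csf3r, −0.84, edgeR adjusted p = 0.0298). Under overexpression and between the control viruses it was 0 in every alternative run.

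Over all genes, 1978 were called under overexpression, and 995 to 2164 with 1 library left out (995 without ANG8 replicate 1, 1307 without ANG8 replicate 2, 1080 and 1133 without Ad_GFP replicates 1 and 2). Under knockdown 28 were called, 132 without the filter, 102 with DESeq2, 47 with the mitochondrial covariate and 21 to 39 with 1 library left out. In the difference 972 were called, 1510 without the filter, 1541 with DESeq2 and 473 to 1227 with 1 library left out. Between the control viruses 0 were called, 96 without the filter, 46 with DESeq2 and 0 to 10 with 1 library left out.

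The replicate block gave 55 calls under knockdown, 1550 in the difference and 5 between the control viruses, and the Csf3r difference had an adjusted p of 0.0407. Same-numbered libraries correlated at −0.07 to 0.15 (overexpression), 0.03 to 0.19 (knockdown) and −0.04 to 0.08 (control viruses). In each group 2 of 3 libraries correlated best with their own number. The labels do not say that the numbers mark pairs, so the main fit did not use them. Whether the libraries were paired cannot be told from these values.

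Directions turned for values that were not called. S100a9 under overexpression became 0.35 with voom, 0.0756 with the replicate block, 0.12 with the mitochondrial covariate, 1.11 without Ad_GFP replicate 3, 0.07 without ANG8 replicate 1 and 0.13 without ANG8 replicate 2, with a lowest value of −0.61 without ANG8 replicate 3. Mmp9 there became 0.0583 without Ad_GFP replicate 3 and ran down to −0.78 with 1 library left out. Between the control viruses, S100a9 became 0.17 with voom, 0.0193 with the replicate block, 0.98 without Ad_GFP replicate 3 and 0.07 without shCtrl replicate 2, down to −0.67 with another left out. Csf3r became 0.0104 without Ad_GFP replicate 3 (down to −0.36 with another left out) and 0.000576 with the mitochondrial covariate. Mmp9 became 0.23 without Ad_GFP replicate 3, 0.39 without shCtrl replicate 2 (down to −1.03 with another left out) and 0.17 with that covariate. The causes were not tested. The fit of the compared groups alone gave no value for Mmp9 under knockdown, which fell below the filter there. Without the filter, Retnlg had log2 values of 0.66 (overexpression, SE 1.12) and −2.18 (knockdown, SE 1.26). Mmp8 had −0.55 (SE 1.68) under overexpression. None of these passed. The low counts of Retnlg, Mmp8 and Mmp9 limit what can be detected.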

Other observations

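The following genes lie outside the naming rule and were chosen after their values were seen. Cxcr2 had 8, 7 and 16 counts in shCtrl and 1, 0 and 0 in shANG8. Its groups did not overlap, and the knockdown comparison gave an edgeR adjusted p of 0.236. Tnf had a log2 fold change of −1.39 (SE 0.44, edgeR adjusted p = 0.383) under knockdown, with every shANG8 library below every shCtrl library. Ppbp had −2.24 there (SE 0.58, edgeR adjusted p = 0.203). These 3 genes did not pass the test in that comparison. Over all tested genes, 6.78% had every shANG8 library below every shCtrl library.

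Cxcl5 had 51 counts and Cxcl3 had 26 counts in shANG8 replicate 1, and both had 0 in shANG8 replicates 2 and 3. The other groups held at most 4 counts of Cxcl5 and 5 of Cxcl3. S100a8, at 9 counts, was at its lowest in that same library. Lcn2, a granule protein that hepatocytes also make, had 9352 counts in ANG8 replicate 3 against 2185 and 1662 in ANG8 replicates 1 and 2. Slpi, a protease inhibitor, had 165 counts in that library against 39 and 25.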
